A study of Homo sapiens with 6 samples.

Results

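The genes described here are 10 immune checkpoint ligands and suppressive genes of tumour cells, namely CD274, PDCD1LG2, CD276, VTCN1, LGALS9, CD47, PVR, IDO1, NT5E and CD38. They were taken by gene symbol from a table of 60498 Ensembl genes, and all 10 were found there. The table holds RNA-seq of SKOV3 (SK-OV-3) cells, an established ovarian cancer line, in 6 libraries. The parent cells carry a WT and a HAQ allele of the innate immune sensor STING1 (WT/HAQ), HAQ being a common variant haplotype of that gene. The edited lines kept the WT allele alone (WT/-) or the HAQ allele alone (HAQ/-). Both came from CRISPR editing with a pair of guides around STING1, puromycin selection and limiting dilution, so each is 1 clone, and the effect of the genotype and that of the clone cannot be told apart. Each line gave 1 control library and 1 library after cGAMP, the cyclic dinucleotide that binds STING1. cGAMP was given at 10 μg/mL for 30 min in a digitonin buffer. The study's methods add 4 h of rest in fresh medium, while the labels place the harvest right after treatment, and how the control cells were handled is not described. No condition has a replicate, and the 3 lines are the only repeats of the treatment. The comparisons asked how far cGAMP moved these genes in each line, and how the lines differed without it.

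Checkpoint ligands are surface proteins by which a cell restrains immune cells. PD-L1 (CD274) and PD-L2 (PDCD1LG2) bind PD-1 on T cells, and B7-H3 (CD276) and B7-H4 (VTCN1) belong to the same B7 family. Galectin-9 (LGALS9) binds TIM-3, CD47 gives macrophages a "do not eat me" signal through SIRPα, and PVR (CD155) binds TIGIT on T and NK cells as well as the activating receptor DNAM-1. The other members act through metabolites. IDO1 starts the breakdown of tryptophan to kynurenine, NT5E (CD73) makes adenosine from AMP, and CD38 degrades NAD. Interferons raise CD274 and IDO1 in many cell types through STAT and IRF factors, and activated STING drives interferon and NF-κB signalling.

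The promoter sequence of members that differed in their response is shown to make visible which of them carry an interferon-type element near the start. RefSeq windows of 300 bases, from 250 before to 50 after the start, were found for 8 of the 10 members, with 9 windows since CD276 has 2 of them. PDCD1LG2 and IDO1 were not matched. Each window was searched on both strands for the core of the interferon-stimulated response element (ISRE, GAAA, any 2 bases, then GAAA), the gamma-activated site (GAS, TTCNNNGAA), the κB site (GGG, any 2 bases, then TTTCC) and the AP-1 site (TGANTCA). Among all 35116 windows, 3.57% held the ISRE core, 7.66% the GAS, 1.91% the κB site and 7.71% the AP-1 site. The 250 bases before the start follow from 5′ to 3′ on the strand of the gene, in build GRCh38.p14, with motif matches in capitals. CD274 and LGALS9 rose after cGAMP and held ISRE cores. CD47, whose sequence is not printed, also rose and had no match. CD38 was higher after cGAMP without a match, and PVR had ratios below 1 without a match. The windows lie at chr9:5450292-5450541 (CD274, plus strand), chr17:27630938-27631187 (LGALS9, plus strand), chr4:15778078-15778327 (CD38, plus strand) and chr19:44643660-44643909 (PVR, plus strand).
CD274: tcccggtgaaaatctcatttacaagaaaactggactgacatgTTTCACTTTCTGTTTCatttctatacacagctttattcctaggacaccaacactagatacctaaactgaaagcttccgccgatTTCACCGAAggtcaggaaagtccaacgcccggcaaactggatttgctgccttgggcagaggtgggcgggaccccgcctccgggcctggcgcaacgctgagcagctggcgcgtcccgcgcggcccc
LGALS9: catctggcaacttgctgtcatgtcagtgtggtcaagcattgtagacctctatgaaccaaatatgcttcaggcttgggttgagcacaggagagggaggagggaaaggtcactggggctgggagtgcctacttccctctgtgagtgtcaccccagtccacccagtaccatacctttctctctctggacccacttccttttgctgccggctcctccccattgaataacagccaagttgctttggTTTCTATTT
CD38: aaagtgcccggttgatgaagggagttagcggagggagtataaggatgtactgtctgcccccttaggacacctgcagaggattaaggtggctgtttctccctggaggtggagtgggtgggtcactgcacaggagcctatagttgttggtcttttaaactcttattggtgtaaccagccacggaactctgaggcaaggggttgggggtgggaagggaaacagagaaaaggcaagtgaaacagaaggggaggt
PVR: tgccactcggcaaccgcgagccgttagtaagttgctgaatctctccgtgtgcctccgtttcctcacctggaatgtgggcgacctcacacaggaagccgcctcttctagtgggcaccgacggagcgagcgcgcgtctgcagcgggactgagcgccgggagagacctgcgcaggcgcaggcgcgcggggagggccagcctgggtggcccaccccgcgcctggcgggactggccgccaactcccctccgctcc
In CD274 a pair of ISRE cores on the minus strand, TTTCACTTTC at −208 to −199 and TTTCTGTTTC at −202 to −193, overlapped by 4 bases, so that their capitals run together. The second run of capitals in CD274 is the GAS match TTCACCGAA at −125 to −117. LGALS9 held an ISRE core on the minus strand, TTTCTATTTC, which ran from −9 to the first transcribed base, and that last base lies just past the printed stretch. VTCN1 held an AP-1 match at +2 to +8, and the windows of CD276, CD47, NT5E, CD38 and PVR held none of the 4 motifs. A match is a description of letters in a window and no evidence of binding.

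**Figure D1:**
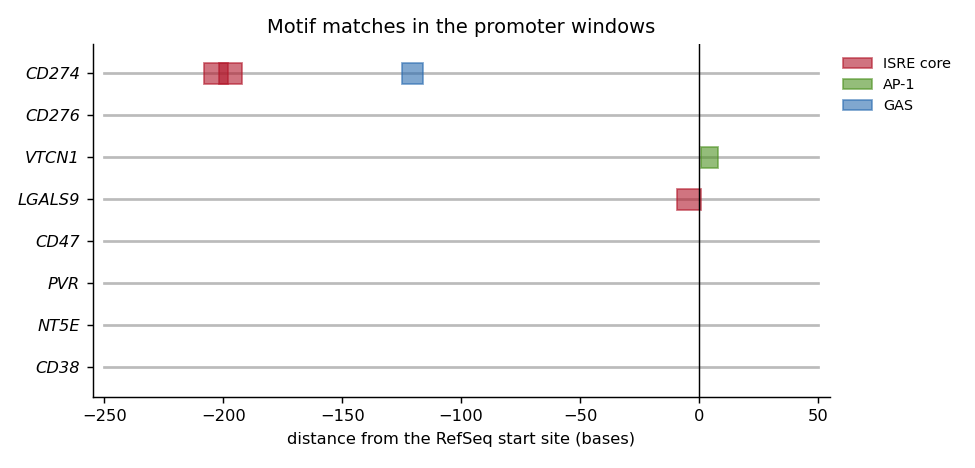
Positions of motif matches in the RefSeq promoter windows of 8 members, with distance from the start site in bases on the x axis. Grey lines are the windows searched, and coloured boxes mark ISRE cores (CD274 and LGALS9), a GAS (CD274) and an AP-1 site (VTCN1). Both windows of CD276 are drawn on 1 line and hold no match, and none of these windows held a κB site.

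Library totals ran from 12444822 to 17608467 counts, and 9 of the 10 members had a mean of at least 10 counts over the 6 libraries, the minimum for the test, while VTCN1 did not. The edited gene STING1 measured 669 normalized counts in untreated WT/HAQ, 353 in WT/- and 213 in HAQ/-, and 1780, 553 and 403 after cGAMP. It was therefore lower in both edited lines and detected in every library. All 8 carcinoma markers searched, among them ERBB2, EPCAM and KRT8, were detected in every library, and after cGAMP edgeR called 0 of them (3 lower by unadjusted p, and 2 lower by DESeq2). Of all genes 13.6% were lower by unadjusted p and 3.85% by DESeq2. PAX8 had log2 folds of −1.78, −0.92 and −0.49 and KRT7 of −1.0, −0.66 and −0.36 in WT/HAQ, WT/- and HAQ/-, and KRT19 had 5629 normalized counts in untreated WT/HAQ beside 364 in WT/- and 414 in HAQ/-. The part of these in the results was not tested. Of the leukocyte markers, PTPRC, CD3E, CD14 and LYZ had at most 4 counts in any library and ITGAX at most 7. NCAM1 had 8, 11 and 0 control counts and 20, 45 and 0 after cGAMP in the same order of lines. CD68, which is also found outside leukocytes, had 438 to 734 counts and did not pass the test (log2 fold 0.54, adjusted p = 0.0648 by edgeR). NCAM1 and CD68, the 2 leukocyte markers tested, were both higher by unadjusted p, and 1 was by DESeq2. Of 5 fibroblast and endothelial markers 3 were tested, and edgeR called 0 of them (1 higher by unadjusted p, and 1 by DESeq2), where it called 3.23% of all genes. COL3A1 had 51 counts in cGAMP-treated WT/HAQ and 41 in cGAMP-treated HAQ/- against at most 1 elsewhere, and its part in the results was not tested. COL1A1 had 839 to 1123 counts, with log2 folds of 0.20, 0.14 and 0.04 in WT/HAQ, WT/- and HAQ/-. PECAM1, with 7 to 19 counts, had 1.10, −0.15 and −0.31 in that order. PDGFRB had at most 3 counts and CDH5 at most 10.

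PD-L1 mRNA rose after cGAMP, with a higher level in each of the 3 lines. CD274 (ENSG00000120217) spans chr9:5450503-5470566 on the plus strand of GRCh38 and has 7 exons. Its normalized counts (scaled for library size and composition) were 158 in the untreated parent line WT/HAQ, 109 in WT/- and 47.1 in HAQ/-. cGAMP-treated libraries held 862 (WT/HAQ), 1405 (WT/-) and 201 (HAQ/-). Every treated library lay above every control library, and HAQ/- was lowest under both conditions. The ratio of treated to control counts was 12.9 in WT/- (95% Wilson interval 10.6 to 15.6), 5.45 in WT/HAQ (4.64 to 6.40) and 4.28 in HAQ/- (3.16 to 5.78). These intervals cover counting error only. In bulk RNA, more cells that express a gene and more RNA per cell cannot be told apart. Across the 3 lines, edgeR's quasi-likelihood test with line as a block gave a log2 fold of 2.81 (SE 0.31, adjusted p = 0.0200, n = 3 lines), with a higher level after cGAMP in 3 of 3 lines. The call was lost without WT/HAQ (adjusted p = 0.0531) and without WT/- (0.110).

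PDCD1LG2 (ENSG00000197646), which encodes PD-L2, begins 39965 bp beyond the end of CD274, at chr9:5510531-5571282 on the same strand. It was less abundant than CD274 in every library, by little in untreated HAQ/- (11.5 beside 13.0 normalized counts per kb), and its ratios were smaller in each line. Control libraries held 31.8 (WT/HAQ), 34.5 (WT/-) and 27.9 (HAQ/-) normalized counts, and treated libraries 65.6, 76.1 and 31.7 in the same order. The treated HAQ/- library lay within the range of the controls. WT/HAQ had a ratio of 2.06 (1.38 to 3.08), WT/- of 2.20 (1.46 to 3.33) and HAQ/- of 1.14 (0.692 to 1.87), the last with an interval that includes 1. The test across the lines gave a log2 fold of 0.82 (SE 0.27, adjusted p = 0.152), which did not pass. Without HAQ/- it passed (log2 fold 1.09, adjusted p = 0.0410 by edgeR).

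**Figure D2:**
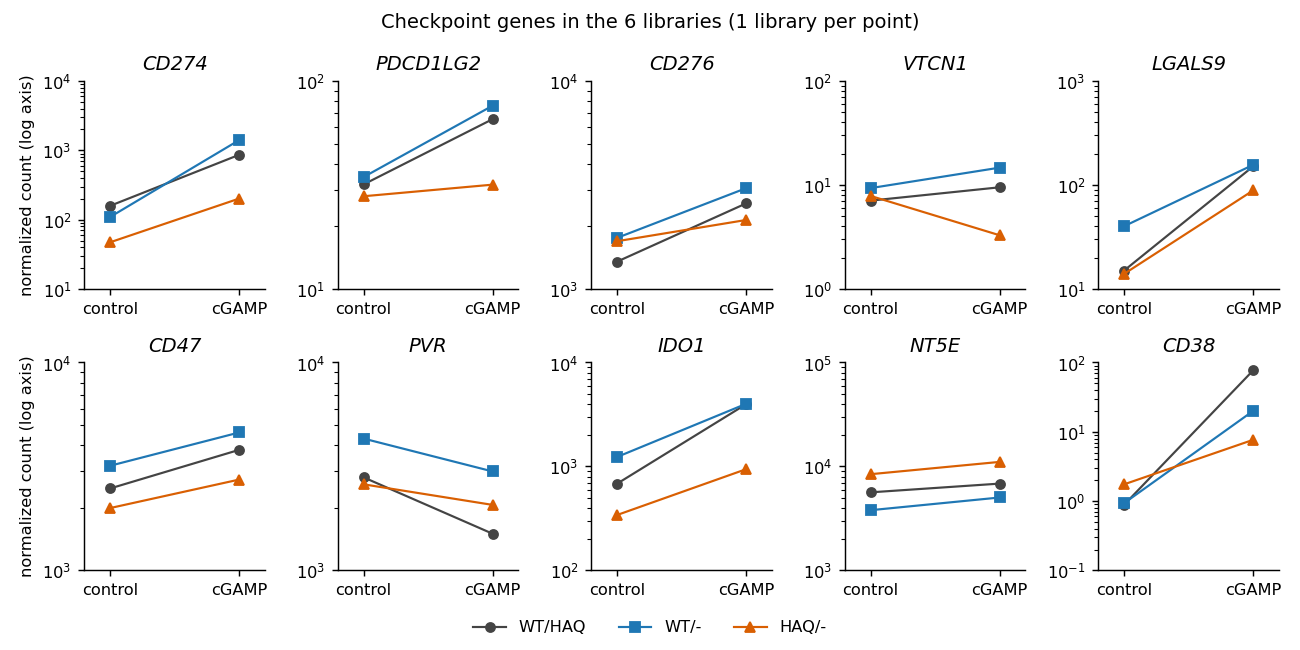
Normalized counts (log axis, scaled separately in each panel) of the 10 members in the 6 libraries, with control on the left and cGAMP on the right of each panel. Points are single libraries, and lines join the 2 libraries of WT/HAQ (grey circles), WT/- (blue squares) and HAQ/- (orange triangles). CD274, LGALS9, IDO1 and CD38 climb steeply, PVR slopes down in all 3 lines, and NT5E is nearly flat with HAQ/- on top.

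Among the other B7 genes, CD276 was abundant and VTCN1 was at the limit of detection. CD276 measured 1353, 1761 and 1697 normalized counts in the untreated WT/HAQ, WT/- and HAQ/- lines. The treated libraries of these lines held 2580, 3053 and 2147, all above the controls. WT/HAQ had the highest ratio, 1.91 (1.79 to 2.03), WT/- had 1.73 (1.63 to 1.84) and HAQ/- 1.27 (1.19 to 1.35). The test across the lines gave a log2 fold of 0.69 (SE 0.13, adjusted p = 0.0621), short of the threshold. It passed with DESeq2 (adjusted p = 0.00107) and without HAQ/- by edgeR (0.000788). VTCN1, a ligand often found on ovarian tumours, had 8, 10 and 9 counts in the control libraries and 10, 11 and 3 in the treated ones, which is too few for a call.

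LGALS9 and CD47 rose, with higher levels in each of the 3 lines, and PVR had lower values after cGAMP in every line without passing the test. LGALS9 measured 15.0, 40.1 and 14.0 normalized counts in untreated WT/HAQ, WT/- and HAQ/-, and 151, 156 and 88.7 after cGAMP. All treated values exceeded all controls, and WT/- began from the highest control value. The ratio was 10.1 in WT/HAQ (6.13 to 16.5), 6.35 in HAQ/- (3.74 to 10.8) and 3.89 in WT/- (2.75 to 5.51). The log2 fold across the lines was 2.59 (SE 0.30, adjusted p = 0.0233 by edgeR, higher in 3 of 3 lines). Without WT/HAQ the adjusted p was 0.0598, and without WT/- it was 0.174. The near-identical copies LGALS9B and LGALS9C had 0 counts in every library, and since estimated counts divide shared reads between copies, a small exchange among them cannot be seen.

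CD47 was measured at 2478, 3186 and 1994 normalized counts in the untreated WT/HAQ, WT/- and HAQ/- libraries. After treatment it stood at 3800, 4607 and 2734, so the treated HAQ/- value fell among the controls while each line was higher than its control. Its ratios were close to each other, with WT/HAQ at 1.53 (1.46 to 1.61), WT/- at 1.45 (1.38 to 1.52) and HAQ/- at 1.37 (1.30 to 1.45). The log2 fold of 0.53 had an SE of 0.069 and passed (adjusted p = 0.0284, edgeR, 3 of 3 lines higher). Leaving out WT/HAQ raised the adjusted p to 0.111, and leaving out WT/- raised it to 0.324.

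PVR was the member with lower values after cGAMP. Controls held 2803 (WT/HAQ), 4306 (WT/-) and 2594 (HAQ/-) normalized counts, and treated libraries 1501, 2992 and 2066. Each line had a lower value after cGAMP, with the lowest ratio in WT/HAQ, although the ranges of treated and control libraries overlapped. For WT/HAQ the ratio was 0.535 (0.504 to 0.569), for WT/- 0.695 (0.661 to 0.731) and for HAQ/- 0.796 (0.752 to 0.843). The log2 fold across the lines was −0.58 (SE 0.12, adjusted p = 0.0725), which missed the threshold with edgeR, passed with DESeq2 (adjusted p = 0.00648), and passed with edgeR without HAQ/- (0.00362). The 3′ part of PVR shares 3885 bp with CEACAM19 on the same strand. CEACAM19 had 170, 298 and 209 counts in the controls and 80, 151 and 150 after cGAMP, and ENSG00000279095, which shares 2028 bp on that strand, had 230, 384 and 218 counts in the controls and 104, 175 and 175 after cGAMP. Both were small beside the counts of PVR, and how the authors' counting divided such reads could not be checked.

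Of the 3 members whose products act on metabolites, IDO1 rose, NT5E did not pass the test, and CD38 was seen almost only after cGAMP. IDO1 was already abundant without cGAMP, at 682, 1234 and 341 normalized counts in WT/HAQ, WT/- and HAQ/-. After cGAMP it reached 3973, 4004 and 941, so that the treated HAQ/- library stayed below the untreated WT/- library. In ratio this was 5.82 (5.39 to 6.29) for WT/HAQ, 3.25 (3.04 to 3.46) for WT/- and 2.76 (2.45 to 3.11) for HAQ/-. IDO1 rose by a log2 fold of 1.91 across the lines (SE 0.22, adjusted p = 0.0220 by edgeR), in 3 of 3 lines. The call held without WT/HAQ and without HAQ/-, and was lost without WT/- (adjusted p = 0.272). Antisense transcripts that overlap IDO1 had at most 22 counts in any library.

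NT5E was the most abundant member per kilobase of transcript in each untreated line. It measured 5635, 3795 and 8423 normalized counts in the untreated WT/HAQ, WT/- and HAQ/- lines and 6839, 5027 and 11059 after cGAMP. The order of the lines was the same with and without treatment, and the lines differed by more than the treatment moved them. The ratios of 1.21 (1.17 to 1.26), 1.32 (1.27 to 1.38) and 1.31 (1.28 to 1.35) were close to each other. The log2 fold of 0.36 (SE 0.066, adjusted p = 0.0602 by edgeR) missed the threshold, and it passed without HAQ/- (0.0333) and with DESeq2 (adjusted p = 0.0143).

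CD38 went from near absence to detection. The control libraries held 1, 1 and 2 counts in WT/HAQ, WT/- and HAQ/-, and the treated ones 81, 15 and 7. Treated and control counts did not overlap, and WT/HAQ held most of the treated counts. Scaled for library size, WT/HAQ had a ratio of 87.1 (15.2 to 498), WT/- of 21.5 (3.62 to 127) and HAQ/- of 4.39 (1.04 to 18.6), intervals as wide as the control counts are small. CD38 passed the count minimum only through its treated libraries (mean 1.33 counts in the controls and 5.2 over the libraries other than treated WT/HAQ), so the filter favoured a difference in its test, and its call is given as a description. edgeR gave an adjusted p of 0.0463, with 3 of 3 lines higher, and its fitted log2 fold of 4.54 (SE 0.74) depends on the prior count. The adjusted p was 0.211 without WT/HAQ, 0.348 without WT/- and 0.0507 with DESeq2's size factors in place of TMM.

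**Figure D3:**
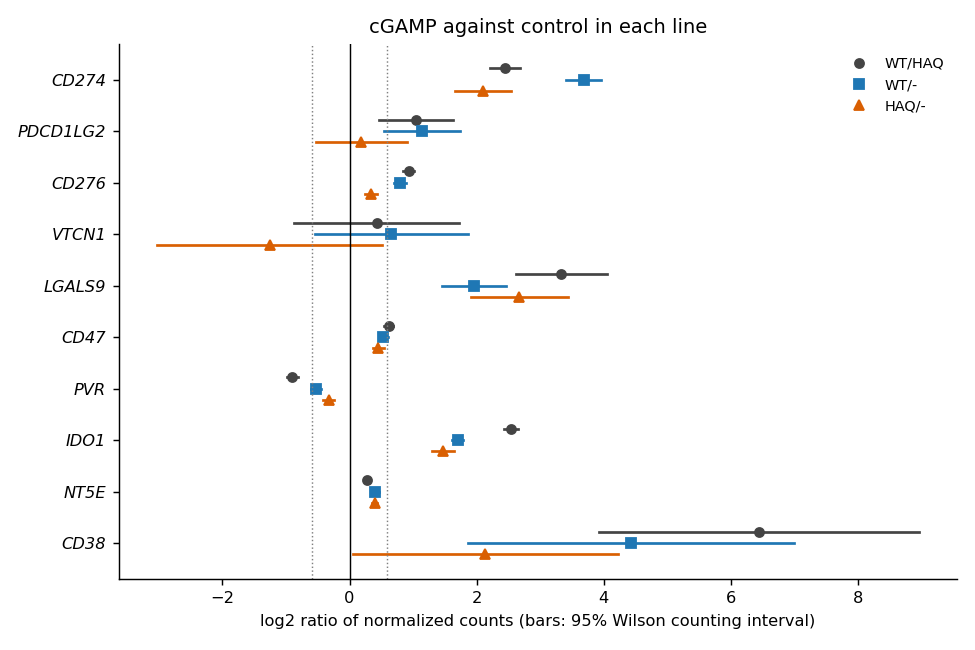
Log2 ratios of cGAMP to control normalized counts for the 10 members in WT/HAQ (grey circles), WT/- (blue squares) and HAQ/- (orange triangles), with 95% Wilson intervals for counting error as bars and dotted lines at 1.5-fold. Among the points of CD274 that of WT/- lies farthest right, at 12.9-fold, PVR lies left of 0 in all 3 lines, and the bars of VTCN1 and CD38 are wide.

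By the test across the lines, 4 of the 8 tested members other than CD38 rose (CD274, LGALS9, IDO1 and CD47), where 2.27% of all 15126 tested genes rose and 3.23% were called either way. With CD38, which entered through its treated libraries, the count was 5 of 9, and with DESeq2's size factors in edgeR it was 4 of 9. By edgeR 0 of 8 members fell, where 0.959% of the tested genes did. With p under 0.05 before adjustment, 7 of the 8 were higher, against 11.6% of all genes, and 1 (PVR) was lower, against 13.6%. DESeq2 called 6 of the 8 higher, these 4 with CD276 and NT5E, against 5.10% of genes, and 1 (PVR) lower, against 3.85%. Without the line as a block edgeR called 0 members, where it called 0.377% of all genes higher and 0.0264% lower. Before adjustment 4 of the 8 were higher and 0 lower in that fit, where 11.7% of all genes had p under 0.05 in either direction. The median log2 fold was 0.75 for the 8 members and −0.0035 for all tested genes. Without WT/- edgeR called 0 members and 0 genes in all, at 6 of the 8 members higher, 1 lower and 1888 genes of either direction by unadjusted p. Without WT/HAQ it called IDO1 alone, where 0.899% of genes were called higher. Without HAQ/- it called all 8, with 7 higher and PVR lower, where 8.50% of genes were called higher and 8.65% lower.

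Within single lines, a ratio of at least 1.5 either way was counted as raised or lowered, with no test. The counts are given for the 8 tested members other than CD38, which was also raised in each line but had entered through its treated libraries. In WT/HAQ, 6 of 8 members were raised, against 12.9% of all genes with a ratio, and PVR was the 1 member lowered, against 12.3%. In WT/-, 5 were raised (11.9% of all genes) and 0 lowered (8.79%). In HAQ/-, 3 were raised (6.77% of all genes) and 0 lowered (5.79%). The 3 members raised in all 3 lines were CD274, LGALS9 and IDO1, where 3.12% of all genes were. HAQ/- had the smallest fold of the 3 lines in 5 of 8 members, CD274, PDCD1LG2, CD276, CD47 and IDO1, against 35.4% of all genes. The median log2 fold of the 8 members was 0.99, 0.97 and 0.42 for WT/HAQ, WT/- and HAQ/-.

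How far the response differed between lines was taken for the 8 members with more than 3 counts in each library, leaving out CD38 and VTCN1. The interval of a difference covers counting error only and says nothing of the spread between cultures. Of these 8, CD274 showed the widest gap between the edited lines, with a log2 fold 1.59 higher in WT/- than in HAQ/- (1.07 to 2.11). Its fold in WT/HAQ was 1.24 lower than in WT/- on the log2 scale, with an interval for WT/HAQ minus WT/- of −1.60 to −0.88, and it could not be separated from that in HAQ/- (difference 0.35, −0.15 to 0.84). For IDO1 it was WT/HAQ that stood above both edited lines, by 0.84 over WT/- (0.70 to 0.99) and by 1.08 over HAQ/- (0.87 to 1.28). LGALS9 had a fold 1.37 higher in WT/HAQ than in WT/- (0.49 to 2.25), and neither line could be separated from HAQ/-. PVR had a lower fold in WT/HAQ than in WT/- (difference −0.38, −0.49 to −0.26) and a lower one in WT/- than in HAQ/- (−0.20, −0.31 to −0.09). The folds of CD47 in WT/- and HAQ/- differed by 0.08 (−0.03 to 0.18) and those of NT5E by 0.01 (−0.06 to 0.09), on the log2 scale. Against WT/HAQ both genes differed in part, CD47 with a fold 0.16 higher in WT/HAQ than in HAQ/- (0.054 to 0.27) and NT5E with a fold in WT/HAQ below that in HAQ/- (difference −0.11, −0.18 to −0.050) and in WT/- (−0.13, −0.21 to −0.046). The interval for CD47 in WT/HAQ minus WT/- included 0 (0.085, −0.012 to 0.18) and lay above it with DESeq2's size factors and with total counts (lower bound 0.020 in both). Between WT/- and HAQ/-, 4 of 8 members had an interval above 0 (CD274, PDCD1LG2, CD276 and IDO1), against 16.1% of all genes, and 1 below 0 (PVR), against 14.5%. For PDCD1LG2 the difference was 0.96, with bounds of 0.016 and 1.89, and for IDO1 it was 0.23 (0.038 to 0.43). Scaled by total counts, both intervals included 0 (lower bounds −0.033 and −0.012), which left CD274 and CD276 as 2 of 8, and with DESeq2's size factors that of PDCD1LG2 did (−0.0096). For WT/HAQ against HAQ/-, 3 members were above 0 (16.7% of genes) and 2 below (19.8%), and for WT/HAQ against WT/-, 3 were above (12.7%) and 3 below (18.6%). STING1 itself was lowest in HAQ/- before and after treatment, and its part in these differences was not tested.

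Before treatment the lines already differed in these genes. IDO1 was 1.81-fold higher in untreated WT/- than in untreated WT/HAQ (1.65 to 1.98), while untreated HAQ/- was at 0.50 of WT/HAQ (0.443 to 0.565) and 0.276 of WT/- (0.247 to 0.309). CD274 in untreated HAQ/- was at 0.298 of WT/HAQ (0.220 to 0.403) and 0.431 of WT/- (0.313 to 0.595). LGALS9 was 2.67-fold higher in WT/- than in WT/HAQ (1.53 to 4.65), whereas HAQ/- and WT/HAQ could not be separated within counting error (ratio 0.929, 0.475 to 1.82). NT5E ran the other way, with untreated HAQ/- at 2.22-fold of WT/- (2.14 to 2.30) and WT/- at 0.673 of WT/HAQ (0.647 to 0.700). For PDCD1LG2 no pair of untreated lines differed beyond its counting interval, the ratios being 1.09, 0.877 and 0.808.

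**Figure D4:**
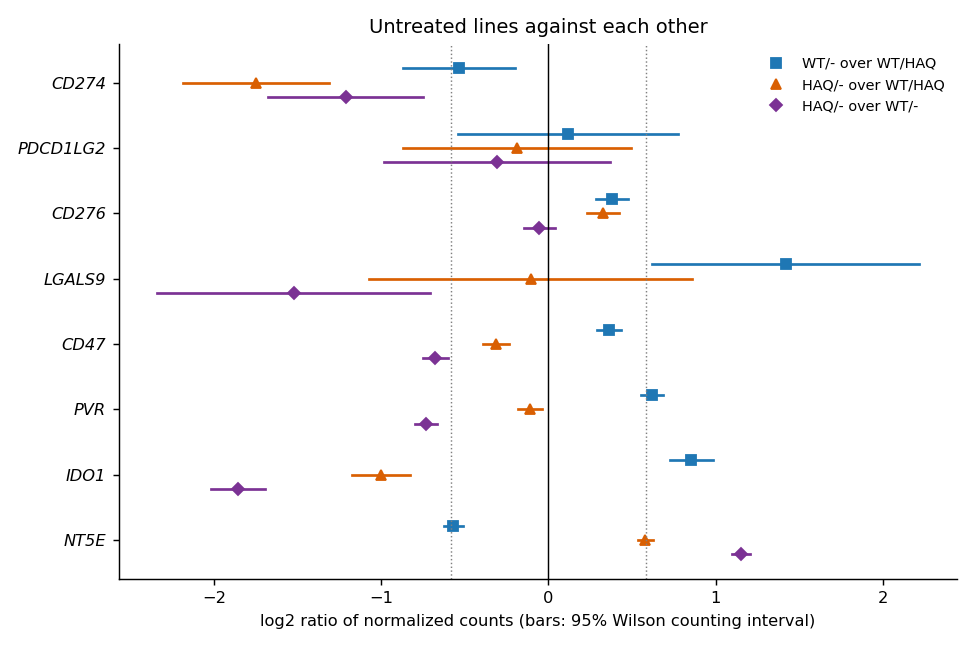
Log2 ratios between untreated lines for the 8 tested members other than CD38, which had 1 or 2 control counts, as WT/- over WT/HAQ (blue squares), HAQ/- over WT/HAQ (orange triangles) and HAQ/- over WT/- (purple diamonds). Bars are 95% Wilson intervals for counting error and dotted lines mark 1.5-fold. IDO1 and CD274 lie left of 0 in both HAQ/- comparisons, and NT5E lies right of 0 in both.

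In counts, untreated HAQ/- had 5 of 8 members at least 1.5-fold lower than WT/- (CD274, LGALS9, PVR, CD47 and IDO1), where 15.3% of all genes were lower, and NT5E alone higher, where 11.7% were. WT/- had LGALS9, PVR and IDO1 raised over WT/HAQ (3 of 8, 13.0% of genes) and 0 lowered (9.90%). HAQ/- had CD274 and IDO1 lowered against WT/HAQ (2 of 8, 8.62% of genes) and 0 raised (7.40%), with NT5E just short at 1.495-fold.

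A test of the lines over both treatments, with treatment as a block and 2 libraries a line, used the control libraries together with the treated ones. Its log2 folds therefore mix differences before treatment with differences in the response to cGAMP. For CD274 in HAQ/- against WT/- the untreated log2 ratio was −1.21, beside −2.23 in this test. The 2 libraries of a line differ in treatment, so the p-values do not measure the spread of the untreated differences. HAQ/- was lower than WT/- in CD274 (log2 fold −2.23, SE 0.39, adjusted p = 0.0219 by edgeR), IDO1 (−1.97, SE 0.27, 0.0123), CD47 (−0.71, SE 0.085, 0.00951) and PVR (−0.63, SE 0.15, 0.0446). It was higher in NT5E (log2 fold 1.14, SE 0.082, adjusted p = 0.00292). These 5 calls among 9 tested members stand beside 19.0% of all genes called in that comparison, 11.1% lower and 7.94% higher. Between WT/- and WT/HAQ, 2 of 9 members were called, against 8.81% of all genes, 4.99% higher and 3.81% lower. PVR was higher in WT/- (log2 fold 0.80, SE 0.15, adjusted p = 0.0404 by edgeR), and NT5E was lower (−0.51, SE 0.081, 0.0289). Between HAQ/- and WT/HAQ only NT5E was called (log2 fold 0.64, SE 0.081, adjusted p = 0.0418 by edgeR), against 1.22% of all genes (0.377% higher and 0.846% lower), and the call was lost without WT/-, at an adjusted p of 0.196. CD274 missed the threshold between HAQ/- and WT/HAQ with edgeR (log2 fold −2.0, adjusted p = 0.0939) and passed with DESeq2 (adjusted p = 9.3e-05). So did IDO1 (log2 fold −1.58, adjusted p = 0.0716 by edgeR and 8.8e-06 by DESeq2), where DESeq2 called 2.51% of all genes lower. IDO1 also passed with edgeR at a mean count of at least 1 (adjusted p = 0.0420). NT5E was the member called in all 3 comparisons of lines, in the order WT/- below WT/HAQ below HAQ/-.

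Levels of different genes were compared per kilobase of the main transcript. In untreated WT/HAQ, NT5E led with 1582 normalized counts per kb, followed by PVR (484), CD47 (468), CD276 (411) and IDO1 (369). CD274 had 43.5, PDCD1LG2 13.1, LGALS9 8.72, VTCN1 2.71 and CD38 0.157 normalized counts per kb. After cGAMP IDO1 took the first place in WT/HAQ with 2149 and in WT/- with 2166 per kb, with NT5E next at 1920 and 1411. In treated HAQ/- NT5E remained first at 3105, and IDO1 was the fourth at 509 per kb, just under CD47 at 517. CD274 was the sixth of the 10 members in each of the 6 libraries, from 13.0 per kb in untreated HAQ/- to 387 in treated WT/-. No replicates were available to say which neighbours in this order differ.

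CD274 and PDCD1LG2 lie in a stretch of chromosome 9 that also holds JAK2, the kinase downstream of interferon receptors, with 466 kb between the 5′ ends of JAK2 and CD274. Of 25 neighbouring genes listed, 7 had too few counts and 18 were tested, of which edgeR called 0 either way (3 higher and 4 lower by unadjusted p, and 1 higher by DESeq2), where it called 3.23% of all genes. JAK2 had the largest folds among the 18 tested genes in WT/HAQ and WT/-, though not in HAQ/-, where IL33 with its 4 and 11 counts had a larger one. JAK2 had 145, 133 and 142 normalized counts in untreated WT/HAQ, WT/- and HAQ/- and 1845, 1286 and 280 after cGAMP. The log2 folds of JAK2 were 3.67, 3.27 and 0.98 in that order (adjusted p = 0.0689 by edgeR), and the treated HAQ/- library was the lowest of the treated ones. PLGRKT, with its 5′ end at −12.6 kb from that of CD274, had log2 folds of 0.27, 0.57 and −0.40, and RIC1, 179 kb beyond it, had −0.02, −0.15 and −0.10. PLGRKT and RIC1 were chosen for their position after their values were seen. Of the tested neighbours, PLGRKT alone has its 5′ end between those of JAK2 and CD274.

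**Figure D5:**
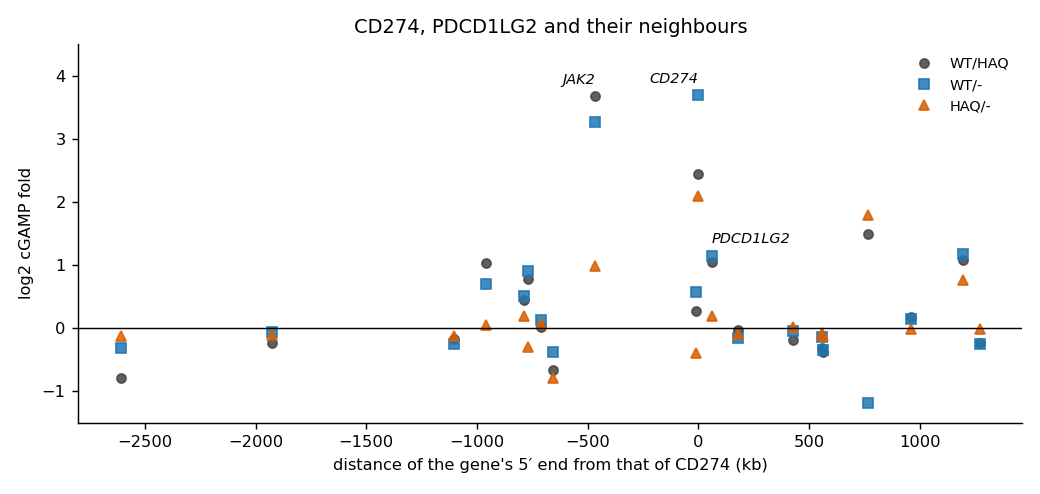
Log2 cGAMP folds of CD274, PDCD1LG2 and 18 neighbouring genes in WT/HAQ (grey circles), WT/- (blue squares) and HAQ/- (orange triangles), placed by the distance in kb of each gene's 5′ end from that of CD274. JAK2 and CD274 stand above 2 in WT/HAQ and WT/-, PDCD1LG2 is near 1 in these lines, and most other genes lie near 0.

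Genes around the members in their pathways were read from lists drawn up with results of these data known. Among 22 interferon and NF-κB regulators of PD-L1, 9 rose and 2 fell (10 higher and 6 lower by unadjusted p, and 10 higher and 3 lower by DESeq2), where 2.27% of all genes rose and 0.959% fell. The 2 that fell were IRF3 and NFKB1, named after their values were seen. The risers with the largest average folds were SOCS1, a feedback inhibitor of JAK kinases (log2 fold 3.06, SE 0.30, adjusted p = 0.0140 by edgeR), STAT2 (2.54, SE 0.28, 0.0189), IRF7 (2.50, SE 0.17, 0.00700) and IRF9 (2.16, SE 0.28, 0.0297). In the tryptophan and kynurenine pathway around IDO1, 3 of 13 tested genes rose and 1 fell (3 higher and 3 lower by unadjusted p, and 3 higher and 2 lower by DESeq2). By unadjusted p 11.6% of all genes were higher and 13.6% lower, and by DESeq2 5.10% and 3.85%. The tryptophanyl-tRNA synthetase WARS1 rose by a log2 fold of 3.01 (SE 0.38, adjusted p = 0.0272 by edgeR), with 4882, 2345 and 4288 control counts in WT/HAQ, WT/- and HAQ/- and 55655, 18299 and 12691 counts after cGAMP. The amino acid oxidase IL4I1 (log2 fold 1.45) and kynureninase KYNU (0.94) also rose, and the kynurenine-sensing receptor AHR fell by 0.46 on the log2 scale (adjusted p = 0.0462 by edgeR).

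In the adenosine and NAD pathway around NT5E and CD38, 1 of 15 tested genes rose and 0 fell (4 higher and 1 lower by unadjusted p, and 2 higher by DESeq2). Of all genes 2.27% rose and 0.959% fell (11.6% and 13.6% by unadjusted p, and 5.10% and 3.85% by DESeq2). The gene of this pathway that rose was NAMPT, which makes NAD, with a log2 fold of 0.90 (SE 0.14, adjusted p = 0.0448 by edgeR). The purine nucleoside phosphorylase PNP had larger log2 folds of 3.03 in WT/HAQ and 2.80 in WT/- beside 0.90 in HAQ/- and did not pass (adjusted p = 0.0691). ENTPD1, the ectonucleotidase that supplies NT5E with AMP, had log2 folds of 0.24, 0.03 and 0.06, and is named after its values were seen.

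Among B7 relatives, nectins and the protein partners of PD-L1 and CD47 edgeR made 0 calls, where 3.23% of all genes were called, so such counts in short lists are near the background. It called 0 of 10 tested B7 and butyrophilin genes (2 higher and 2 lower by unadjusted p, and 1 higher by DESeq2). BTN3A1 had log2 folds of 1.51, 1.54 and 0.17 in WT/HAQ, WT/- and HAQ/-, and NCR3LG1 (B7-H6) had −1.25, −0.74 and −0.28. Of 5 nectins and TIGIT-axis ligands, relatives of PVR, 0 were called (2 higher and 1 lower unadjusted, and 0 by DESeq2). NECTIN1 had log2 folds of 2.10, 0.51 and 0.28 and NECTIN3 −0.45, −0.41 and −0.15. Of 14 genes that act on the PD-L1 protein or with CD47, again 0 were called (2 higher and 2 lower unadjusted, and 1 higher by DESeq2), the median log2 fold being −0.0074. HIP1R, which carries PD-L1 to lysosomes, had 987, 1187 and 1077 normalized counts in the controls and 11357, 10340 and 2233 after cGAMP, with an adjusted p of 0.0691 by edgeR. THBS1, a ligand of CD47, had log2 folds of −1.18, −0.54 and −0.10.

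The genes whose response was most like that of CD274 were sought over all genes with a fold, by Euclidean distance over the 3 log2 folds. The nearest were PTGS2 (distance 0.64), RPL17P28 (0.65), ST8SIA4 (0.65), KLF4 (0.74) and SLC15A3 (0.86). PTGS2 had log2 folds of 1.91, 3.65 and 2.44 in WT/HAQ, WT/- and HAQ/-, with WT/- highest as for CD274, and rested on 3 and 13 counts in HAQ/-. RPL17P28 is a pseudogene with at most 1 count in each control library. KLF4 was the most abundant of the nearest genes, with 1241, 1205 and 769 control counts and 9424, 8924 and 2038 after cGAMP. Nearest to PDCD1LG2 were SMIM27 (distance 0.066), PLPPR3 (0.084), RGS14 (0.088), HOXB3 (0.11) and ARHGEF26 (0.13), all with log2 folds between 1.02 and 1.25 in WT/HAQ and WT/- and at most 0.20 in HAQ/-. SMIM27 rested on 9 to 25 counts and PLPPR3 on 5 to 20. The log2 ratio of PDCD1LG2 in WT/HAQ had a counting interval of 0.47 to 1.62, so these distances lie within counting error. With 3 lines as points, such a likeness is a description of these libraries.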

How the data were processed

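Poly(A) RNA was sequenced as paired reads from 3 SKOV3 lines with and without cGAMP, 1 library each. The authors deposited expected counts per Ensembl gene, that is, estimated counts without normalization, and the submitters' processing notes name STAR, RSEM and GRCh38 without versions. The strand setting is not given in the sources used here. Values were rounded to whole counts. The 15126 genes that averaged 10 counts or more were tested with edgeR 4.0.16 (R 4.3.3, TMM, quasi-likelihood, line and treatment as terms, Benjamini-Hochberg, 2 residual degrees of freedom), and p-values measure only the spread between these libraries. DESeq2 1.42.0 was the alternative test. Normalized counts are counts divided by TMM size factors centred on the geometric mean. A floor of 3 counts was applied to called folds, with none taken where neither library passed that floor. The block rests on the line in the labels: deviations from the treatment means correlated at 0.39, 0.68 and 0.52 between the 2 libraries of WT/HAQ, WT/- and HAQ/- (across genes, which are not independent replicates). Up to 4 genes of a pathway list were named, by largest average fold among those past the threshold or, where fewer than 2 passed, by largest smallest fold. The members and lists were chosen with earlier results of these data known. Gene positions are from GENCODE release 44. Other steps ran in Python 3.11.15 (pandas 2.3.3, scipy 1.17.1), figures in matplotlib 3.10.9, and the tests, folds and motif search were tested on simulated data. A further leukocyte marker of the list is not reported here.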

Additional observations from a re-analysis of the deposited data

Results flagged for a closer look

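The log2 ratio of cGAMP to control for VTCN1 was 0.427 in WT/HAQ and 0.655 in WT/-, but −1.26 in HAQ/-, so that HAQ/- moved opposite to the other lines. The difference was not tested. The ratios rest on 8 and 10, 10 and 11, and 9 and 3 counts, and each counting interval includes a ratio of 1.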

How the results depend on the processing

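With 1 library a condition, the calls on the members rest on 3 lines as repeats, and counting intervals cover counting error only. Without the replicate block edgeR called 0 members in each of the 4 tests. With the block it called 5 higher after cGAMP, and 1 higher and 1 lower in WT/- against WT/HAQ. It also called 1 higher in HAQ/- against WT/HAQ, and 1 higher and 4 lower in HAQ/- against WT/-. Of all genes the fits without the block called 0.403%, 1.63%, 0.0926% and 4.69% in these 4 tests, in that order. By unadjusted p in those fits, 5 members passed after cGAMP, where 11.7% of all genes did. In WT/- against WT/HAQ 0 members passed, where 19.6% of genes did. In HAQ/- against WT/HAQ 1 passed (11.0% of genes), and in HAQ/- against WT/- 1 passed (25.5%). The member counts in the comparisons of lines are near or below those shares. For CD276 in HAQ/- against WT/HAQ the log2 fold went from 0.035 to −0.033 without the block, with no call either way. When each line was left out in turn, members higher after cGAMP ranged from 0 to 8 and members lower from 0 to 1, with 0 genes in all called by edgeR without WT/-, and members higher in HAQ/- against WT/HAQ were 0 without WT/-. PVR was the 1 member lower after cGAMP with a mean count of at least 1 and with DESeq2. In HAQ/- against WT/HAQ, members lower were 1 with a mean count of at least 1 and 2 with DESeq2, in place of 0.

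In this section the counts of members in the tests and in the cGAMP folds include CD38 where it passed the count minimum. Untreated folds and differences of folds leave it out, since its control counts were under 3. The main results count 8 members without it. A fold of 2 in place of 1.5 gave 0 members lowered in WT/HAQ, 1 raised in untreated WT/- against WT/HAQ and 3 lowered in untreated HAQ/- against WT/-. A fold of 1.2 gave 1 lowered in WT/-, 7 raised and 1 lowered in HAQ/-, 5 raised and 2 lowered in untreated WT/- against WT/HAQ, and 2 raised in untreated HAQ/- against WT/HAQ. The shares of all genes at a fold of 2 or of 1.2 are not given here. These counts show how the tally moves with the threshold and cannot be set against the background. Total counts in place of TMM gave 1 lowered in WT/- and in untreated WT/- against WT/HAQ, and 2 in place of 4 members with a fold above that of HAQ/- in WT/-. NT5E, at 1.495-fold, became the 1 member raised in untreated HAQ/- against WT/HAQ with DESeq2 size factors, total counts or a mean count of at least 1 or 50. The mean count of at least 1 brought in VTCN1, lowered in HAQ/- as 1 member. Scaling by total counts moved the median gene by up to 0.10 on the log2 scale, in untreated HAQ/- against WT/-. The cause of these shifts was not tested. All other counts of members stayed within 1.5 times the reported ones.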

Other observations

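Ligands that activate immune cells were read beside the suppressive ones. Of all genes 2.27% were called higher and 0.959% lower after cGAMP by edgeR (11.6% and 13.6% by unadjusted p, and 5.10% and 3.85% by DESeq2). Of 14 tested co-stimulatory and NKG2D ligands, edgeR called 1 higher and 0 lower (5 higher and 3 lower by unadjusted p, and 4 higher and 0 lower by DESeq2). The gene called was RAET1L (ULBP6), a ligand of the activating receptor NKG2D, with 41, 23 and 35 counts in untreated WT/HAQ, WT/- and HAQ/- and 4948, 1711 and 246 after cGAMP (log2 fold 5.93, SE 0.76, adjusted p = 0.0280 by edgeR, higher in 3 of 3 lines). The related ULBP2 had log2 folds of 2.09, 1.82 and 0.61 and RAET1E had 1.34, 2.47 and 0.55, neither past the threshold. TNFSF4, the OX40 ligand, had log2 folds of −0.41, −0.62 and −0.35. ULBP3, with 2.77, 2.55 and 0.11, and ICAM1, with −2.40, −1.06 and −0.35, are named after their values were seen. RAET1L lies in a cluster of near-identical genes, so how its reads were divided among them is uncertain.

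Among 8 tested inhibitory ligands of NK and T cells, edgeR called 0 (3 higher and 1 lower by unadjusted p, and 2 higher by DESeq2), where it called 3.23% of all genes. CEACAM1, a ligand of TIM-3 and of itself, had 4, 3 and 5 counts in untreated WT/HAQ, WT/- and HAQ/- and 110, 65 and 5 after cGAMP, and its adjusted p was 0.0736. HLA-E, which binds NKG2A, had log2 folds of 0.70, 0.51 and 0.29 (adjusted p = 0.0634 by edgeR). In 38 genes of an interferon signature that the study took from earlier work, 35 rose and 0 fell (38 higher and 0 lower by unadjusted p, and 35 higher and 0 lower by DESeq2), with a median log2 fold of 2.95 beside 0.75 for the 8 tested members other than CD38. Of all genes 2.27% rose and 0.959% fell by edgeR.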
